A study of Saccharomyces cerevisiae BY4741 with 25 samples.

Results

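Synonymous single-base calls are changes of 1 letter in a codon that leave the encoded amino acid as it was. They were taken from variant lists of 9 budding yeast genomic DNA libraries in the BY4741 background, all grown in rich glucose medium to stationary phase. The mutant pools RRC1 to RRC8 were each made of clones grown from spores of a backcross, cultured apart and combined before DNA extraction, and each pool holds both mating types. The strain names put RRC1 (rrn9) and RRC4 under YTT67, and RRC2 (rrn10), RRC3 (rrn5), RRC5 (uaf30), RRC6, RRC7 and RRC8 under YTT66. The parental library mixed the starting strains YTT66 and YTT67, so no share could be given for either strain alone. For RRC4 the description speaks of the parental strains while the title and the strain name give a mutant, and it is treated as a mutant pool here. Each mutant is 1 library of pooled clones, the number of clones is not given in the sources used here, and the series describes the screen as one for derepressed SIR2, a histone deacetylase gene.

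A call was a member when at least 10 reads covered it, when its reference and alternate alleles were 1 letter each, and when its annotation held a synonymous effect with no missense or stop-gain effect. This gave 303 different changes of the 1507 with that depth in the 9 lists, in 188 genes and open reading frames, and 451 missense changes were found the same way. The 303 changes made up 904 calls, counting a change once for each list that holds it. As a check of the label, the codons before and after the change encoded the annotated amino acid in 904 of 904 calls, and the alleles matched the codon on the strand given by the systematic gene name in 904 of 904.

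Most amino acids have several codons, and these mostly differ in the third base, so a change there often leaves the protein as it was. Codons for the same amino acid are not used equally: highly expressed yeast genes favour a subset of preferred codons. In a pool of backcross spores chosen for a phenotype, an unlinked change is carried by about 50% of reads, while a change close to the selected locus is carried by nearly all of them. Synonymous changes are seldom the cause of a phenotype, so in such a pool they serve as markers of the DNA around them.

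The lists held 112, 115, 100, 136, 96, 67, 86 and 90 synonymous calls in RRC1 to RRC8 and 102 in the parental library. RRC4 had the most and RRC6 the fewest. Median depth at these calls was lowest in RRC6, with 31 reads, and lay between 35.5 and 54 reads in the other mutant pools, against 40 in the parental library. In the mutant pools 243 calls were absent from the parental list at any depth and are called pool-specific below, namely 31, 31, 37, 55, 26, 17, 24 and 22 in RRC1 to RRC8. The name refers to the parental list only. Of the 243, 168 were absent from the other 7 mutant lists too, and the rest recur in other mutant pools. The lists name called variants only, so absence from a list is not a measured share of 0%. Of the 303 changes, 185 were in 1 list, 35 were in all 9, and 83 lay between.

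**Figure D1:**
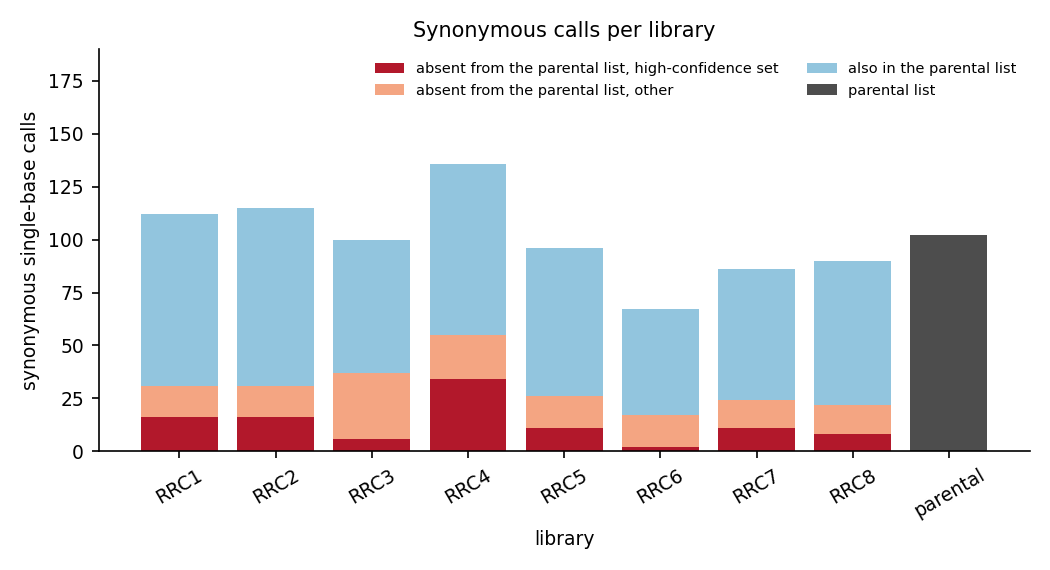
Number of synonymous calls (vertical axis) in each of the 8 mutant pools and the parental library (horizontal axis), split by whether the change is also in the parental list. The red part, the high-confidence calls absent from the parental list, counts 34 in RRC4 and 2 to 16 in the other pools.

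Within the pool-specific calls, a high-confidence set was kept apart: its deposited call score was 200 or higher, the parental list had nothing called at that position, and no more than 1 further list did. It held 104 calls in 101 genes on all 16 chromosomes: 16, 16, 6, 34, 11, 2, 11 and 8 in RRC1 to RRC8. All of these are called with 43 reads or more, the median being 68.5. Without RRC4, whose labels conflict, 70 calls remain, at a mean share of 52.7% (SD 8.19), and all 70 are of the base-change kind described next. Genes with more than 1 such call were DBP8, an RNA helicase of ribosome assembly, MHP1, a microtubule-associated protein, and LEU2. DBP8 was hit at codons 121 and 276 in RRC4, and MHP1 at codon 825 in RRC4 and at codon 369 in RRC5. LEU2 was called at codon 288 in RRC3 and at codon 323 in RRC7. The codon 288 change was in the RRC1 list too, at 23% of 325 reads. LEU2 was read at 307 to 1375 reads and had other changes that recur, such as codon 290 in 5 lists. At codon 290 the share was 22% in RRC1 and 69% in RRC3, beside 23% and 66% at codon 288. At codon 261, called in the parental list too, it was 23% and 67%. Whether the LEU2 calls are new changes of 1 pool was not tested. Without LEU2 the set held 102 calls in 100 genes, at a mean share of 53.0% (SD 8.60). In the whole high-confidence set 225 calls were missense and 6 were stop gains, so synonymous calls made up 31.0% of the coding single-base calls.

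The codon changes of the high-confidence set were of 1 kind. With the changed base in capitals, the commonest was the lysine change aaG to aaA, with 15 calls, followed by the glutamate change gaG to gaA with 13, the arginine change agG to agA with 8, the alanine change gcG to gcA with 7 and the proline change ccC to ccT with 7. On the coding strand 62 of the 104 calls were G to A and 42 were C to T, which are the same change of a G:C pair to an A:T pair read from either strand. The changed base was the third of the codon in 101 calls. The other 3 calls changed the first base of a leucine codon, namely Cta to Tta at codon 10 of PRY3 in RRC2, Ctg to Ttg at codon 119 of GYP7 in RRC2 and Ctg to Ttg at codon 33 of ZIP2 in RRC4. Leucine and arginine are the amino acids whose codons allow a silent change of the first base.

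Codon preference changed in both directions. By a list of 23 preferred yeast codons, 34 of the 104 calls turned another codon into a preferred one, 31 turned a preferred codon into another, 31 lay between codons that are both outside the list, and 8 lay between preferred codons. Changes into a preferred codon were mostly gaG to gaA (glutamate) and agG to agA (arginine), while aaG to aaA (lysine) left a preferred codon.

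**Figure D2:**
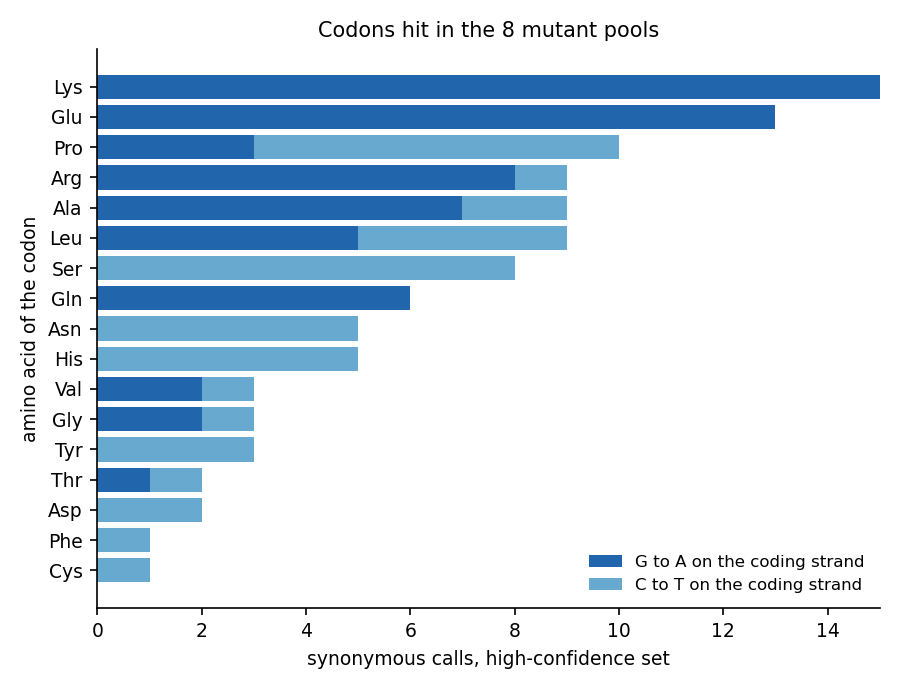
Number of high-confidence synonymous calls over the 8 mutant pools (horizontal axis) by the amino acid of the codon (vertical axis), coloured by the change on the coding strand. Lysine, with 15 calls, and glutamate, with 13, are hit only by G to A.

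Every one of the 104 high-confidence synonymous calls was a G:C to A:T change (100%, exact 95% interval 96.5 to 100). Among all 243 pool-specific synonymous calls the share was 65.4%, and among the 139 outside the high-confidence set it was 39.6% (exact 95% interval 31.4 to 48.2). The parental list had 41 of 102 synonymous calls of that kind, 40.2% (30.6 to 50.4). Missense calls chosen by the same criteria were G:C to A:T in 219 of 225 cases (97.3%), other single-base calls in 129 of 132 (97.7%) and stop gains in 6 of 6, so the share in synonymous calls was near that of the other kinds. With a score of at least 200 as the only criterion, 108 of 115 pool-specific synonymous calls (93.9%) and 18 of 42 parental synonymous calls (42.9%) were G:C to A:T.

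The excess of G:C to A:T changes was present in every pool. In RRC1 to RRC8 the share among pool-specific synonymous calls was 64.5%, 64.5%, 59.5%, 76.4%, 69.2%, 58.8%, 66.7% and 50%, against 40.7%, 41.7%, 41.3%, 39.5%, 44.3%, 38%, 43.5% and 39.7% among the synonymous calls each pool shared with the parental list. The lowest pool-specific share, in RRC8, lay above the highest shared one, in RRC5. The mean difference was 22.6 percentage points (SD 7.41, n = 8 pools, positive in 8 of 8), with a p of 0.00781 by an exact two-sided sign-flip permutation test, the smallest that 8 pools allow. With the high-confidence set in place of all pool-specific calls, and parental-shared calls of a score of at least 200 to set it against, the difference was 56.1 points with the same p. The shared calls are largely the same sites in every pool, and some pool-specific calls recur in other mutant pools. The 8 values are therefore not fully independent.

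**Figure D3:**
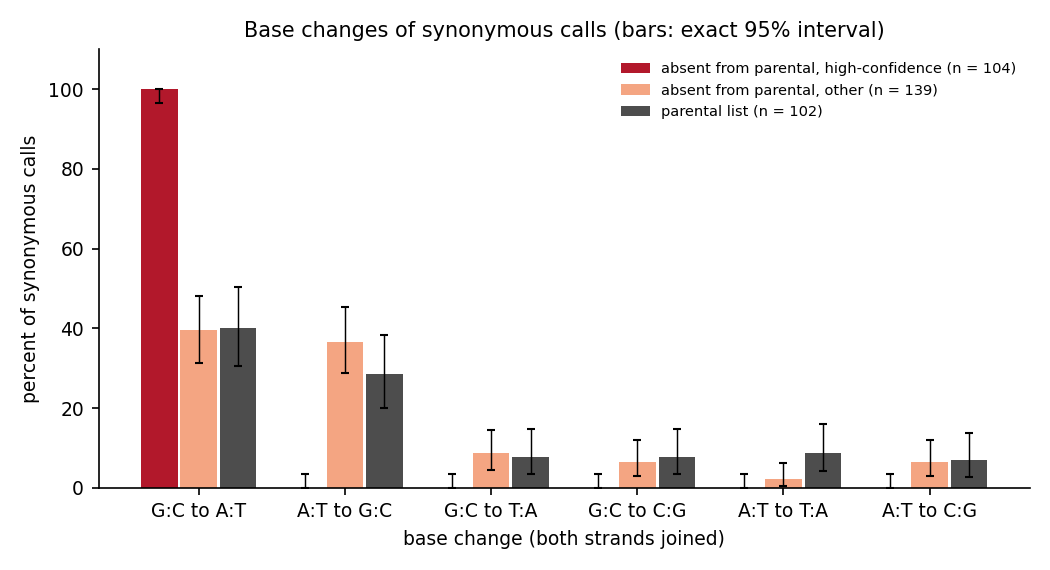
Percent of synonymous calls (vertical axis) of each base-change class (horizontal axis) in the high-confidence set, in the other pool-specific calls and in the parental list, with exact 95% binomial intervals. The high-confidence set has bars at 100% for G:C to A:T and 0% elsewhere, while the other pool-specific calls and the parental list are spread over all 6 classes.

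Shares of the high-confidence calls lay around 50% of reads. Their mean was 53.1% ± 8.61 (SD over 104 calls), with a median of 53% and a range of 33% to 83%; 80 of the 104 were within 40% to 60%, 4 were below and 20 above. High-confidence missense calls averaged 53.9% ± 11.8 (SD over 225 calls) and reached 100%. The score minimum of 200 left out some synonymous calls with low shares. TRK1 in RRC4, at 33% of 57 reads, scored 181, and RCE1 in RRC2, at 29% of 87 reads, scored 192. Calls above 50% were left out too, such as LAS21 in RRC3, at 55% of 68 reads with 196. The part of this minimum in the mean share and in the numbers of calls above and below 50% was not tested. By an exact binomial test against 50%, Benjamini-Hochberg adjusted over all pool-specific calls of the pool, 9 synonymous calls (8.65%) were above 50%, where 13.5% of the 483 high-confidence calls of any kind were, and 2 (1.92%) were below, where 2.69% were. Neither synonymous share was above its background. These tests compare reads within 1 library, and the intervals cover counting error only.

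Calls that stood above 50% had neighbours with like shares in part of the cases. The highest was codon 95 of YGR011W (ctC to ctT, chromosome 7) in RRC4, with 83% of 61 reads (exact 95% interval 71.9 to 91.8, adjusted exact binomial p = 1.40e-06). The change is annotated 49 bases downstream of NMA2, and YGR011W is 1 of 4 open reading frames that the RefSeq gene table of assembly R64 does not list. The nearest high-confidence calls of RRC4 were missense changes in YGR021W, 15.5 kb away at 71%, in LEU1, a leucine synthesis gene 36.0 kb away at 69%, and in ALK1, 55.8 kb away at 60%. Over these 3 calls the share was lower at each step away from YGR011W.

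Codon 71 of RPL21A (ctG to ctA, chromosome 2), a gene for a protein of the large ribosomal subunit, was at 68% of 70 reads in RRC4 (exact 95% interval 56.4 to 79.1, adjusted exact binomial p = 0.00908). Beside it, calls at DUR1_2, CSH1 and RPB5 had 66%, 70% and 72%, at 30.0, 45.3 and 58.6 kb. In RRC5, codon 609 of the multidrug transporter gene PDR5 (ccC to ccT, chromosome 15) was at 66% of 75 reads (adjusted exact binomial p = 0.0122). Missense calls in MED4 and MSB1, 37.7 and 67.3 kb away, had 65% and 63%, and one in RRS1, 246.9 kb away, had 100%. Whether the calls of a pool that lie near each other belong to 1 linked segment was not tested.

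For 3 further calls above 50% the nearest high-confidence call was over 50 kb away. Codon 207 of the phosphate transporter gene PHO91 (agG to agA, chromosome 14) was at 75% of 52 reads in RRC7 (adjusted exact binomial p = 0.00151), while the nearest high-confidence calls, 51.4 and 340.8 kb away, had 60% and 54%. GYP7, for a protein that acts on a vacuolar Rab GTPase, had 64% of 76 reads at codon 119 in RRC2 (adjusted exact binomial p = 0.0307), with the nearest such call 557.3 kb away at 48%. PNG1, for a peptide N-glycanase, had 64% of 73 reads at codon 3 in RRC8 (adjusted exact binomial p = 0.0400), with a missense call in RPA135 at 63%, 212.2 kb away. The remaining calls above 50% were GLN4 and HFA1 in RRC4, at 65% of 80 and 66% of 63 reads, and LEU2 codon 288 in RRC3. The LEU2 call was at 66% of 512 reads, and the same change was in the RRC1 list at 23% of 325 reads. The HFA1 call had a missense call in INP1 at 67%, 12.6 kb away, the synonymous TRS130 call at 60%, 20.6 kb away, and a call at RPS10B at 53%, 48.9 kb away. Beside GLN4, calls 41.7 and 48.0 kb away had 45% and 54%, and beside LEU2 in RRC3 a call at KCC4, 9.90 kb away, had 45%.

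The calls below 50% were in UTP13 and YBR096W. UTP13, for a component of the small-subunit processome that assembles pre-rRNA, had gaC to gaT at codon 325 in 33% of 66 reads in RRC4 (exact 95% interval 22.2 to 46.0, adjusted exact binomial p = 0.0287), and the nearest such call, 174.2 kb away, had 50%. YBR096W had taC to taT at codon 135 in 35% of 82 reads in RRC1 (25.1 to 46.7, adjusted exact binomial p = 0.0253), with a missense call in VID24 at 39%, 15.5 kb away, and another call at 49%, 16.7 kb away. PRP2, an RNA helicase of the spliceosome, had the lowest share in RRC2, 36% of 61 reads at codon 270, and did not pass (adjusted exact binomial p = 0.0694).

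In the pools other than RRC4 the shares lay between 35% and 75%, with the calls named above included. In RRC1 the highest shares were in PMT4, a protein O-mannosyltransferase gene, with 63% of 76 reads, and PTC7, a mitochondrial phosphatase gene, with 59% of 66. RRC3 ranged from 44% in YER184C to 57% in ZPR1, below LEU2 at 66%. RRC5 ranged from 42% in ATP25 to 64% in the carbonic anhydrase gene NCE103, below PDR5, and in RRC2 KEL3 was next below GYP7, with 61%. The 2 calls of RRC6 were both on chromosome 11, in SNU114, a spliceosomal GTPase gene, with 53% of 47 reads, and in SLD2, a DNA replication initiation gene, with 61% of 57. RRC7 ranged from 43% in ERG4, for the last enzyme of ergosterol synthesis, to 63% in YIL108W, below PHO91. RRC8 ranged from 46% in EAF3, a subunit gene of histone-modifying complexes, to 63% in NPR1, a kinase gene of nutrient control, and 64% in PNG1.

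**Figure D4:**
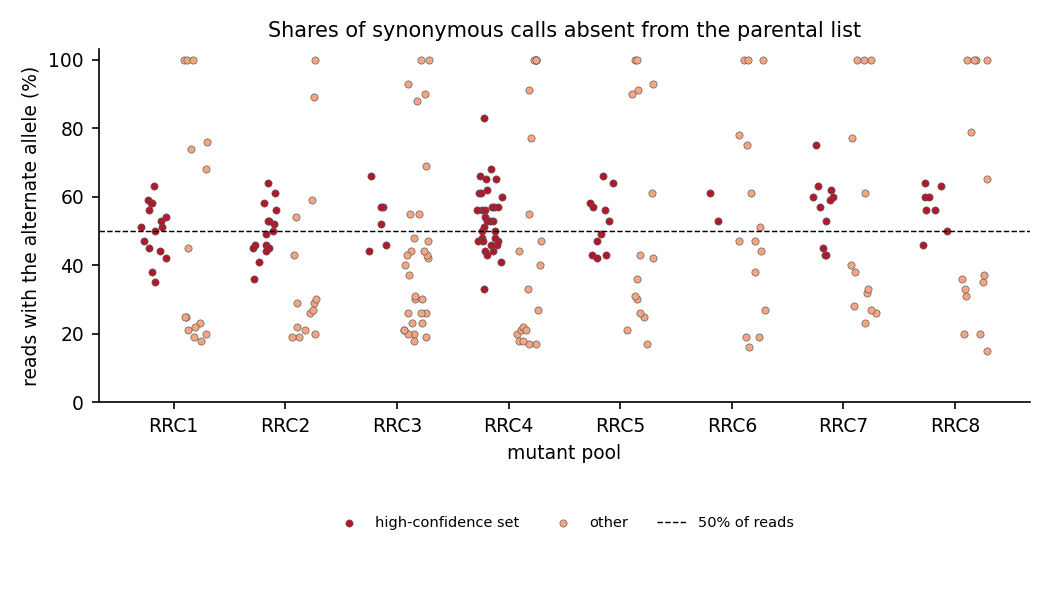
Percent of reads with the alternate allele (vertical axis) for each pool-specific synonymous call in the 8 mutant pools (horizontal axis), with the dashed line at 50%. High-confidence calls lie between 33% and 83%, while the other pool-specific calls run from 15% to 100%.

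Near-fixed synonymous calls, with a share of at least 90% and an adjusted exact binomial p under 0.05 against 50%, were counted next. There were 29 among the 243 pool-specific calls (11.9%), beside 14.8% of the 1350 pool-specific calls of any kind; RRC1 to RRC8 had 3, 1, 4, 6, 5, 3, 3 and 4. None of the 29 was in the high-confidence set, and all lay in a flocculin gene or in a retrotransposon reading frame. FLO9, a subtelomeric cell-surface adhesin gene built of internal repeats, held 22 of them at codons 288, 299, 809, 818, 819 and 821, in 7 pools. Codon 821 (gaG to gaA) was at 100% in 4 pools with 15 to 26 reads, and codon 818 (acT to acC) was at 91% to 100% in 6 pools with 10 to 22 reads. The remaining 7 were the change ccG to ccC at codon 325 of YBL005W-B, at 100% of 11 to 18 reads in the 7 pools RRC1 to RRC7. At 28 of the 29 calls the parental list held another allele at the same position, with FLO9 codon 809 in RRC3 as the exception, at 93% of 16 reads. Median depth at the 29 calls was 15 reads, against 68.5 in the high-confidence set.

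High-confidence synonymous calls were looked up near RRN9, RRN10, RRN5, UAF30, CHD1, IES1, UBP3 and YNG2, in pools where these have near-fixed changes. The pools held 2 to 34 such calls each. No count was made for other windows of the same size, so the number found is not read as low or high. Other genes with a change at 100%, such as RRS1 in RRC5, were not looked up. Within 100 kb the high-confidence set held only MAM1, a meiotic kinetochore gene with caC to caT at codon 57 in 59% of 57 reads in RRC7, 97.7 kb from the UBP3 change, which 100% of 72 reads carried. In RRC3 the nearest high-confidence synonymous call to the RRN5 change was in the microtubule gene STU2, 188.7 kb away at 52% of 61 reads. In RRC5 the nearest to UAF30 was codon 29 of YOR365C, 155.9 kb away at 56% of 62 reads, which lies in the overlapping frame YOR366W too, and PDR5 lay 247.9 kb away. In RRC1 the nearest to RRN9 was BUD22, 506.3 kb away at 47% of 61 reads, and in RRC4 CAJ1 and GLN3 lay 261.6 and 278.8 kb from the CHD1 change at 47% and 54%. For RRN10 in RRC2, IES1 in RRC6, YNG2 in RRC7 and UAF30 in RRC8 there was no high-confidence synonymous call on the chromosome.

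Synonymous and missense calls were then set side by side within each pool. Over all pool-specific calls, the mean share was 49.7%, 44.7%, 45.8%, 52.7%, 53.2%, 55.1%, 54.4% and 55.7% for synonymous calls in RRC1 to RRC8, against 49.6%, 40.2%, 45.7%, 50.0%, 45.6%, 32.9%, 48.1% and 44.2% for missense calls. The gap was widest in RRC6, with 17 synonymous and 22 missense calls, and under 1 point in RRC1 and RRC3. On average synonymous calls were 6.89 points higher (SD 7.27, n = 8 pools, positive in 8 of 8; exact two-sided sign-flip permutation p = 0.00781). Some of these calls recur in several pools, so the 8 values are not fully independent. The difference did not hold in narrower sets. Among calls absent from the other 7 mutant lists it was 0.394 points (exact permutation p = 0.859). Without the FLO9 calls, an alternative chosen after seeing the data, it was 1.05 points (exact permutation p = 0.680), and in the high-confidence set it was -1.10 points (exact permutation p = 0.430).

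Synonymous calls also made up a smaller part of the coding single-base calls among pool-specific calls than among shared ones. The percentages in RRC1 to RRC8 were 35.6%, 42.5%, 44.0%, 34.2%, 40%, 42.5%, 33.8% and 40% of pool-specific calls, against 50.9%, 51.9%, 52.9%, 51.3%, 51.5%, 48.5%, 47.3% and 50.4% of parental-shared ones. The groups did not overlap, and the mean difference was -11.5 points (SD 3.63, n = 8 pools, negative in 8 of 8; exact two-sided sign-flip permutation p = 0.00781). With calls of a score of at least 200 it was -4.64 points (exact permutation p = 0.336), and with the high-confidence set -6.59 points (exact permutation p = 0.203). Here too, calls recur between pools, so the 8 values are not fully independent. Adjusted over the 3 comparisons across pools, the p-values stayed at 0.00781.

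Sites that all 9 lists shared came in a fixed and an intermediate kind. Of the 35, 26 in 21 genes were carried by at least 90% of reads in every library, 22 of them with a score above 200 throughout, and so they do not separate the pools. The protein kinase C gene PKC1 had 4 such sites, at codons 435, 439, 727 and 729, with 96% to 100% of 41 to 95 reads. Others were CTR9, for a subunit of the Paf1 elongation complex, with aaG to aaA at codon 929 and 100% of 44 to 66 reads, the galactose permease gene GAL2 with ggA to ggG at codon 391, the ferric reductase-like gene FRE8 with gcC to gcT at codon 203, and RPL27B, a large-subunit ribosomal protein gene, with atC to atT at codon 50 and 100% in all 9 libraries.

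The 9 variable sites lay in 6 genes. At codon 506 of TKL2, a transketolase gene of the pentose phosphate pathway (gaA to gaG, chromosome 2), the share was 20%, 42%, 44%, 52%, 63%, 48%, 41% and 37% in RRC1 to RRC8, against 44% of 52 reads in the parental library. RRC1, with 59 reads, was lowest and RRC5, with 52 reads, highest. At codon 149 of YNL193W (ttG to ttA, chromosome 14) it was 52%, 62%, 48%, 42%, 43%, 45%, 62% and 39%, against 50% of 71 reads in the parental library. None of these 16 shares passed the test against the parental one: the lowest p, for TKL2 in RRC1, was 0.00821 by Fisher's exact test, and 0.437 after adjustment over all sites of that pool. Codon 821 of the cell wall gene HPF1 had 31% to 48% in the mutant pools and 26% in the parental library, and codon 11 of YMR045C, a retrotransposon frame, 23% to 39% and 25%. The others were codons 209 and 214 of DAN4 and 3 sites in LEU2. Of the 9 sites, only those in LEU2 passed the test against the parental share in any pool.

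**Figure D5:**
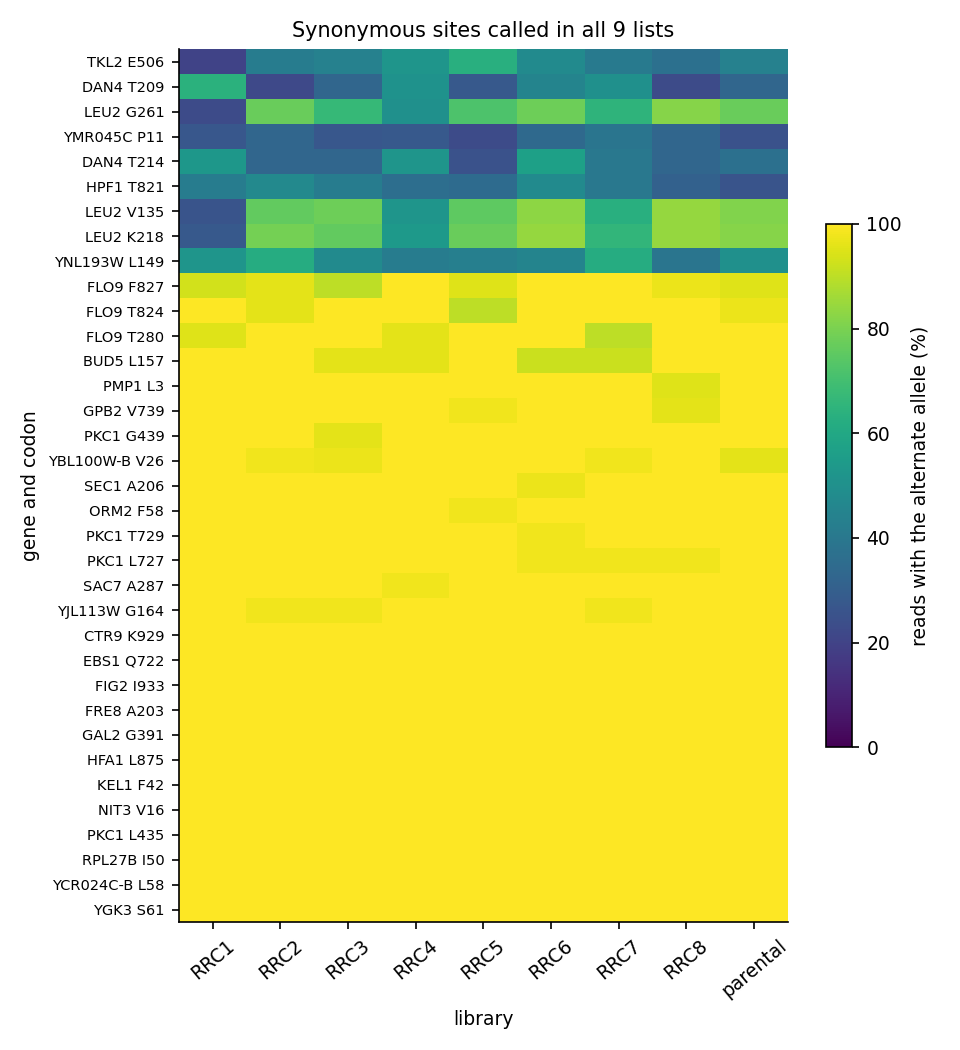
Percent of reads with the alternate allele (colour) at the 35 synonymous sites called in all 9 lists, with the mutant pools RRC1 to RRC8 on the left and the parental library as the last column. The upper rows, for TKL2, DAN4, YMR045C, LEU2, HPF1 and YNL193W, are below 90% in every library, and the other 26 rows stay at 90% or more.

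Mutant pools were compared with the parental library at the synonymous sites they shared, by Fisher's exact test per site with Benjamini-Hochberg adjustment over all shared sites of the pool. Of 543 comparisons, 10 (1.84%) were lower in the mutant pool and 0 were higher, beside 0.645% lower and 0.0538% higher among the 1860 comparisons of any kind of call. At an unadjusted p under 0.05 there were 17 lower and 6 higher. All 10 were in LEU2, a leucine synthesis gene used as a selection marker in yeast strains, where depth was 307 to 1375 reads. At its codons 135, 218 and 261 the shares were 26%, 28% and 23% in RRC1, 52%, 54% and 50% in RRC4, and 63%, 66% and 65% in RRC7, against 81%, 82% and 77% in the parental library, and the site at codon 261 was at 67% in RRC3. Changes absent from the parental list could not enter the test, so LEU2 changes there could not count as higher. Of these, codon 84 had 76%, 55% and 38% in RRC1, RRC4 and RRC7. Codon 214 had 68%, 44% and 33% in these pools, and 20% and 21% in RRC2 and RRC5. Codon 290 had 22%, 47% and 61% in RRC1, RRC4 and RRC7. Such a test compares 2 libraries, not 2 strains, and above 100 reads the alternate read number is a lower bound.

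The gene lists for ribosomal RNA transcription and for silencing and ribosomal DNA stability held no synonymous member, but they are short. Members lay in 188 genes and open reading frames of the genome, and no share over all genes was computed. The zeros are therefore not read as a trait of these genes. There were 0 in the 8 genes for upstream activating factor, which recruits RNA polymerase I to the ribosomal RNA promoter, 0 in the 5 for Rrn3, core factor and the TATA-binding protein, and 0 in the 14 for polymerase I subunits. There were also 0 in the 17 for silencing, at any locus, or for stability of the ribosomal DNA. Of the 21 gene names for histone acetylation and remodelling, which partly name the same gene, only CYC8 had one. CYC8 is a corepressor gene with glutamine repeats, and its call was at 33% of 18 reads with a score of 56. Ribosomal protein genes with a call of a score above 200 included RPL21A, RPL27B and RPS19B, the last with aaG to aaA at codon 51 in 42% of 68 reads in RRC1. Among 51 genes of subtelomeric families, COS5 had 1 site at 100% in 8 lists and PAU8 had a call at 31% with a score of 40.

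Repeat-rich cell wall genes held many of the members. The flocculin and mannoprotein list, of 26 gene names that partly name the same gene, had calls in 10 genes, and these made up 95 of the 303 changes. They were 63 of the 139 pool-specific calls outside the high-confidence set, with 0 in that set. The part that these genes hold of the 1507 changes of any kind was not computed. The count is therefore not read as particular to synonymous calls. FLO9 alone held 50 changes (16.5%) in 204 calls between codons 280 and 827, with 10 to 43 reads and a median of 18, and 28 of the 50 were in threonine codons. DAN4, a cell wall mannoprotein gene, had 12 changes in 77 calls, 68 of them in threonine codons, at 17% to 67% of reads. FLO1, a flocculin gene, had 11 changes in 41 calls, 33 of them in threonine codons, and YMR317W had 6 changes in 26 calls. NUM1, for a cortical protein that anchors dynein and mitochondria and holds internal repeats, had 7 changes in 14 calls, 6 of which were pool-specific at 19% to 28% of reads with scores of at most 14.2. Reads from near-identical repeats cannot be assigned with certainty, so values in these genes are uncertain.

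Outside the list, the genes with 4 or more changes were LEU2, NUM1, PKC1 and the retrotransposon frames YBL100W-B, YNL284C-B and YLR410W-B. Altogether 128 of the 139 other pool-specific calls had a score under 200, 62 had a call in more than 1 other list at the position, and 29 had another parental allele there.

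In 7 genes a high-confidence synonymous call in one pool stood beside a high-confidence protein-changing call in another. KRI1, a ribosome assembly gene, had gtG to gtA at codon 344 in 50% of 76 reads in RRC4, and E463K in 60% of 78 reads in RRC8. In UTP18, another small-subunit processome gene, aaG to aaA at codon 98 was at 45% of 75 reads in RRC7 and D204N at 42% of 63 reads in RRC4. NPR1 had aaG to aaA at codon 296 in 63% of 68 reads in RRC8, and D746N in 39% of 73 reads in RRC4. PDR5, with 66% of 75 reads in RRC5, had R490K in 50% of 63 reads in RRC7. ECM29, a proteasome-associated gene, had gaG to gaA at codon 1721 in 49% of 83 reads in RRC2 and A1777T in 56% of 65 reads in RRC4, and YGR168C had agG to agA at codon 189 in 51% of 77 reads in RRC4 and A12T in 47% of 82 reads in RRC2. YPL216W had tgC to tgT at codon 189 in 61% of 52 reads in RRC4, and in-frame deletions in 64% of 50 and 59% of 47 reads in RRC2. None of these protein changes reached 90%.

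Just inside the depth minimum, with 10 or 11 reads, there were 42 synonymous calls, and just outside it, with 8 or 9 reads, there were 59, with medians of 90% to 95% of reads at 10 and 11 reads and of 62% to 88% at 8 and 9. In all, 254 synonymous calls had fewer than 10 reads.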

How the data were processed

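Variant lists of 9 genomic DNA libraries were used, a full list for each library and a shortened one for each mutant pool; 16 chromatin samples were not analysed here. Per the file headers, each deposited call carries a score, a read count for the position, and the alternate allele's percent of those reads. The submitters' processing notes list SAMtools 0.1.19, Bowtie 1.0.0 and MACS2 without a role; which caller and which genome build were used is not given in the sources used here, so positions serve only within the files.

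The deposited percent is rounded down (3148 of 3148 calls with up to 60 reads match so), and alternate reads were recovered as the fewest that give it, which is exact up to 100 reads. Codons and amino acids are those of the authors' annotation. Of 188 loci, 184 matched RefSeq's table of genes (assembly R64), used for names only; 9 symbols differ and the files' spelling was kept. Exact 95% intervals are Clopper-Pearson and cover counting error only, since amplified reads are not independent molecules. There are no replicate libraries.

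Near-fixed calls, shares above or below 50%, and sites differing from the parental library were called at a Benjamini-Hochberg adjusted p of 0.05 over all calls of the pool; comparisons across the 8 pools used exact two-sided sign-flip permutation tests. The tests were tested on simulated data. Named are genes with near-fixed synonymous calls, the 2 highest and the lowest high-confidence shares in each pool, and the 6 genes with most changes. Named too are list genes with a score of at least 200, and parental sites that differ in the most pools. The rest are calls within 100 kb of RRN9, RRN10, RRN5, UAF30, CHD1, IES1, UBP3 or YNG2, and genes with both synonymous and protein-changing high-confidence calls. Genes and neighbouring calls outside that rule, such as TKL2, YNL193W and PKC1, were picked once their values were known. Members, lists and the high-confidence set were chosen with earlier results of these data known. A planned list of retrotransposon frames was dropped, since the gene table has no descriptions. The result of 1 gene that the rule names is not reported here. Alternatives changed the depth and score minimum, the set of calls, the share threshold and the pools used. Scripts ran in Python 3.11.15 with NumPy 2.4.6, pandas 2.3.3, SciPy 1.17.1 and matplotlib 3.10.9.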

Additional observations from a re-analysis of the deposited data

Results flagged for a closer look

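RRC4 held 34 high-confidence synonymous calls, against 2 to 16 in the other 7 mutant pools, and the gap to the next pool was 0.5625 of the whole range. Median depth in RRC4 was 48 reads at synonymous calls, beside 31 to 54 in the other pools, and 51 reads at all calls, beside 19 to 51. Scores also differed between pools at like shares. SIN4 in RRC3, at 57% of 73 reads, scored 201, while GLN3 in RRC4, at 54% of 48 reads, scored 225. Calls of other pools fell just under the minimum of 200, such as LAS21 in RRC3, at 55% of 68 reads with 196, and BIO3 in RRC6, at 51% of 54 reads with 197. The parts of depth and of the score minimum in this count were not tested. At codon 824 of FLO9 the share was 90% in RRC5, against 96% or more in the other 7 mutant pools and 97% in the parental library, a gap of 0.6 of the range, on 22 reads in RRC5. Chance sets about 1 in 20 groups apart in this way.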

How the results depend on the processing

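The 303 synonymous changes became 158 with a score of at least 200, and the 243 pool-specific calls became 115 with that score and 104 in the high-confidence set. The 29 near-fixed calls became 7 with at least 20 reads, 4 with the score minimum, 1 without positions that carry any parental allele, 0 among calls absent from the other 7 mutant lists, 0 in the high-confidence set and 7 without FLO9. The surplus of 6.89 points of synonymous over missense shares was 2.24 with at least 20 reads, 0.662 with the score minimum, 0.394 among calls absent from the other 7 lists, 1.05 without FLO9, and -1.10 in the high-confidence set, where it reversed; the exact permutation p-values of these 5 ran from 0.383 to 0.883. The difference of -11.5 points in the synonymous part of coding calls was -4.64 with the score minimum and -6.59 in the high-confidence set. The 10 comparisons below the parental share, at 3 LEU2 sites, became 0 with at most 100 reads in both lists and 0 without LEU2. The G:C to A:T difference kept its direction and its side of 0.05 in all 16 alternatives, between 13.6 and 56.1 points. Leaving out each pool in turn gave 188 to 226 pool-specific calls, 23 to 28 near-fixed calls, 7 to 10 comparisons below the parental share, and differences of 20.6 to 24.4 points in the G:C to A:T share, 4.71 to 7.86 in the mean share and -12.3 to -10.7 in the synonymous part. Leaving out FLO9 and leaving out LEU2 were chosen after seeing the data. Where an alternative moved a value, the cause was not tested, apart from alternatives that keep fewer calls. Depth limits what 1 call can show: with a median of 68.5 reads an exact interval spans more than 20 points. No paired analysis was possible because the labels give no replicate numbers that could pair libraries of different groups; the 3 sign-flip tests pair 2 sets of calls within each pool.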
